A study of Mus musculus with 10 samples.

Results

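The choroid plexus genes examined here were 9 genes that mark the epithelium of the choroid plexus: Ttr, Otx2, Kl, Clic6, Folr1, Enpp2, Kcnj13, Prlr and Slc4a5. A gene was measured where a probe set of the array carried its symbol and no other, and the brightest such probe set was kept. This held for 6 of the 9, namely Ttr, Otx2, Kl, Clic6, Folr1 and Slc4a5, each with 1 probe set, out of 22180 genes with such a probe set. The probe set of Kcnj13 also carries the symbol of Gigyf2, so it was left out, and Enpp2 and Prlr were not analysed here. All 6 measured genes passed the filter on dim probe sets, a mean log2 level of at least 5.32 over all arrays, which kept 17712 genes.

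The choroid plexus is a sheet of epithelial cells around leaky capillaries in the brain ventricles. Its cells secrete cerebrospinal fluid by moving ions and water, carry vitamins and hormones from blood into that fluid, and release proteins such as transthyretin, the product of Ttr, which binds thyroxine and the retinol carrier. Most of these genes are not typical of cortical astrocytes, and the tissue named in the labels is cortex, which holds no choroid plexus.

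The series holds 10 arrays of cells sorted for EGFP, a reporter expressed in astrocytes, from mice aged 8 weeks. Of these, 5 arrays carry the label Control, with genotype wild-type, and 5 carry the label FMR1-KO, with genotype FMR1_KO; the reporter is common to both groups. Strain, sex, the promoter that drives the reporter and whether cells of several animals were pooled are not stated in the labels. The labels call the arrays biological replicates without naming animals, so a p-value here reflects only how these arrays vary, which may be technical. Values are log2 signal levels, where 1 unit is a doubling, and levels of different genes are not set against each other because each probe set has its own response.

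Fmr1, the gene named in the genotype, read 8.01 to 8.38 on the arrays labelled FMR1-KO and 7.60 to 8.28 on the controls, and where its probes lie relative to the disrupted part is not known here. Signal from Xist, an RNA of female cells, stood at 10.60 and 10.98 on controls 2 and 3, against 4.98 to 5.23 on the remaining 8 arrays. Markers of microglia, the brain's immune cells, gave signal on every array. The mean of 17 microglia markers lay between 10.06 and 11.05 on controls and between 9.30 and 10.74 on the arrays labelled FMR1-KO, and that of 18 astrocyte markers between 9.73 and 10.41 and between 9.90 and 10.86. Control array 1 and FMR1-KO arrays 1 and 2 had the lowest microglia and the highest astrocyte means, and lay together on 1 side of the first principal component.

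Promoter sequence is shown as background on the members, and its part in their levels was not tested. RefSeq promoter entries (GRCm38.p6) were found for 5 of the 9 genes and for 3 of the 6 measured ones, Kl, Otx2 and Slc4a5. The 250 bases before the start were searched on both strands for the OTX core TAATCC, which the homeobox factor OTX2 binds, the GC box GGGCGG, the CCAAT box CCAAT and the TATA box TATAAA. Kl and the outermost start of Otx2 are printed because they contrast in composition, with 66.8% and 42.0% G and C. The median was 52.4% over all 32851 windows, and the other Otx2 starts had 53.6%, 48.4% and 49.2%. The third sequence is the 30 bases around the only OTX core found in the members' windows. Capitals mark matches to the 4 motifs.
Kl, chr5:150952357-150952606, plus strand: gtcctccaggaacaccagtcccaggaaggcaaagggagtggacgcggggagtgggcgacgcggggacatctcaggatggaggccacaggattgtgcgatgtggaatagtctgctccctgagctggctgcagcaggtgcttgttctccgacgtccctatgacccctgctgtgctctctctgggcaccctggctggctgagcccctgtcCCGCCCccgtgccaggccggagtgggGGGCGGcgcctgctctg
Otx2, chr14:48667645-48667894, minus strand: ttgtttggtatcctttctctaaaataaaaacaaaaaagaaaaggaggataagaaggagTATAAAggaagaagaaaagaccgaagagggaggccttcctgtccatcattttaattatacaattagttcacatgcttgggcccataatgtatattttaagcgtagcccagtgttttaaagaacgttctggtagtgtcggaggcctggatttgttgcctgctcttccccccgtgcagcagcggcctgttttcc
Otx2, around the OTX core before another start: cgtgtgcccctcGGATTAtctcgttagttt
The Kl window held 2 GC boxes, 43 and 17 bases before the start, a motif present in 32.7% of all windows. The outermost Otx2 window held a TATA box at 192 bases, present in 12.4%. A CCAAT box, present in 33.8%, lay before another Otx2 start. The OTX core lay 211 bases before a further Otx2 start, within chr14:48665110-48665359, and 6.25% of all windows hold it. Slc4a5 held 1 GC box at 35 bases and 1 TATA box at 127. The members shared no motif of the 4 in all 3 measured genes, which says only that these letters are not in these windows.

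Ttr, the thyroxine carrier, was read near the top of the scale on every array. It was 13.80, 13.43, 13.39, 13.76 and 13.62 on control arrays 1 to 5, and 13.20, 12.66, 13.69, 13.57 and 13.38 on FMR1-KO arrays 1 to 5. FMR1-KO array 2 was the lowest and control array 1 the highest, and the groups overlapped. The highest value of any probe set on any array was 13.86. Ttr spanned 1.13 log2 units, or 2.20-fold, from its lowest to its highest array, the narrowest span of the 6 genes.

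Kl encodes klotho, a membrane protein whose shed form circulates in cerebrospinal fluid. It had the widest span, 2.18 log2 units or 4.52-fold, and 0.565% of all genes spanned more, against a median span of 0.58. Control arrays 1 to 5 read 10.90, 10.03, 9.41, 10.62 and 10.31, and FMR1-KO arrays 1 to 5 read 9.79, 8.83, 11.00, 10.32 and 9.99. The highest and the lowest array both carried the label FMR1-KO.

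Among ion transport genes, Clic6, a chloride intracellular channel protein, read 8.82, 8.22, 7.40, 8.73 and 8.39 on control arrays 1 to 5. On FMR1-KO arrays 1 to 5 it read 7.73, 7.20, 8.75, 8.19 and 8.24. Slc4a5, a sodium bicarbonate cotransporter of the ventricular face of the epithelium, read 8.53, 7.83, 7.56, 8.92 and 8.35 on controls. Control array 3 was the lowest control for both genes, and FMR1-KO array 3 stood among the 2 highest of all arrays for both. Slc4a5 read 7.70, 7.22, 8.91, 8.11 and 7.82 on FMR1-KO arrays 1 to 5. The spans were 1.62 for Clic6 and 1.69 for Slc4a5.

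Folr1 encodes folate receptor alpha, through which the choroid plexus takes up folate. It read 8.27, 7.64, 7.43, 7.80 and 7.57 on control arrays 1 to 5 and 7.46, 6.82, 8.03, 7.57 and 7.31 on FMR1-KO arrays 1 to 5. Otx2, the transcription factor needed to form and keep the choroid plexus, read 8.50, 7.51, 7.17, 8.46 and 8.05 on controls and 7.40, 6.84, 7.94, 7.61 and 7.31 on the arrays labelled FMR1-KO. For each gene the lowest array was FMR1-KO 2 and the highest control 1. Their spans were 1.44 and 1.66 log2 units.

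The same arrays were high or low for all 6 genes. FMR1-KO array 2 was the lowest of the 10 for 6 of 6 genes. Control arrays 1 and 4 were among the 3 highest for 6 of 6, and FMR1-KO array 3 for 5 of 6. Control array 3 was among the 3 lowest for 5 of 6 and FMR1-KO array 1 for 4 of 6. High and low arrays thus occurred under both labels. A lower signal in sorted material can come from fewer cells of a type or from less RNA per cell, which cannot be told apart here.

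**Figure D1:**
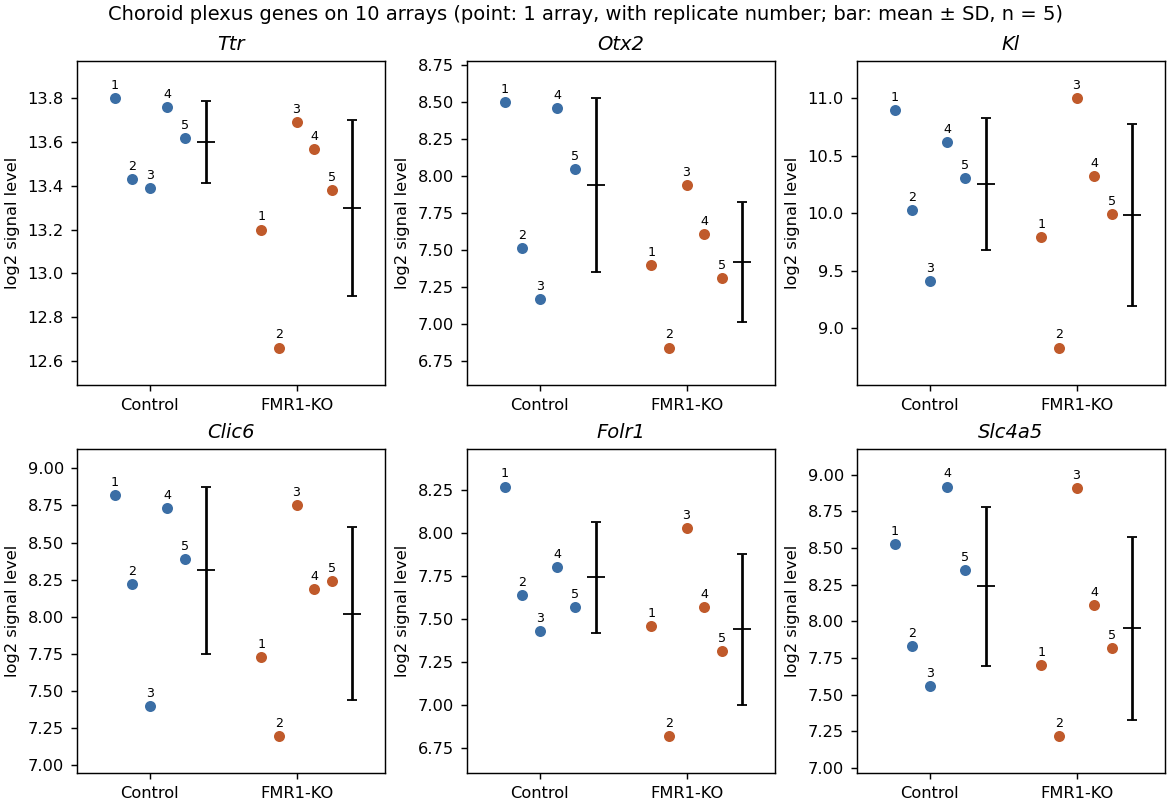
Log2 signal level (y axes, scaled per gene) of the 6 measured choroid plexus genes in control (blue) and FMR1-KO (orange) arrays; each point is 1 array with its replicate number, and the bar beside each group is the mean with its SD over 5 arrays. FMR1-KO array 2 is the lowest point in all 6 panels, and the groups overlap in each.

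The comparison the series states is control against FMR1-KO. All 6 genes had a lower mean on the arrays labelled FMR1-KO, and none passed the test, which used limma over all genes with Benjamini-Hochberg adjustment. Ttr read 13.30 ± 0.40 (SD, n = 5) against 13.60 ± 0.18 (SD, n = 5) in controls, a difference of -0.30 ± 0.17 (SE; 95% interval -0.68 to 0.08; adjusted p = 0.678). Otx2 had the largest difference, -0.52 ± 0.27 (SE; 95% interval -1.10 to 0.06; adjusted p = 0.664), with means of 7.42 ± 0.40 and 7.94 ± 0.58 (SD, n = 5 each). The intervals of the other 4 also spanned 0, so neither no change nor a decrease of about 1 log2 unit in Otx2 and Kl was outside them.

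Folr1 differed by -0.30 ± 0.21 (SE), Clic6 by -0.29 ± 0.30, Slc4a5 by -0.29 ± 0.31 and Kl by -0.27 ± 0.36, with limma adjusted p between 0.705 and 0.867. For 5 genes 4 of 5 arrays labelled FMR1-KO lay below the control mean, and for Kl 3 of 5 did. Exact two-sided permutation tests of the group means over all assignments of arrays to groups, without adjustment, gave p between 0.151 for Otx2 and 0.571 for Kl. Over all 17712 genes 0 were called (0% at an adjusted p under 0.05); at an unadjusted p under 0.05 in limma, 3.53% were lower and 4% higher, and none of the 6 genes was among them. The groups overlapped for 6 of 6 genes, and 0.965% of all genes had groups that did not. A lower mean on the arrays labelled FMR1-KO was found for 53.2% of all genes, beside 6 of 6 here, but these 6 share the same arrays and do not count as 6 observations.

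The size of the differences depended on single arrays, and leaving out 1 array turned the sign of Kl alone. Without FMR1-KO array 2 the differences were -0.14 for Ttr, -0.37 for Otx2 and 0.02 for Kl, and those of Clic6, Folr1 and Slc4a5 were -0.09, -0.15 and -0.10. Without FMR1-KO array 3, a high array, they were -0.40 for Ttr and -0.65 for Otx2. Without control arrays 2 and 3, the arrays with Xist signal, they were -0.42 for Ttr, -0.91 for Otx2, -0.63 for Kl, -0.63 for Clic6, -0.44 for Folr1 and -0.65 for Slc4a5, with a limma adjusted p of 0.893 for each. Leaving out control array 1 and FMR1-KO arrays 1 and 2, the arrays with the lowest microglia means, gave 0.00 for Ttr and -0.18 for Otx2, but 0.35 for Kl, 0.21 for Clic6, 0.03 for Folr1 and 0.11 for Slc4a5. None of the 6 genes had an adjusted p under 0.05 in any of these sets of arrays; the last set called 1 other gene.

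Means of all 17 microglia markers were below control (median difference -0.57), and those of all 18 astrocyte markers above (median 0.40). In limma 0 of either list passed after adjustment, and 6 of 17 microglia markers were lower and 5 of 18 astrocyte markers higher at an unadjusted p under 0.05, beside 3.53% and 4% of all genes. Adding the mean of the microglia markers to the model, which was chosen after seeing the data, gave differences of -0.09 for Ttr, -0.43 for Otx2, -0.20 for Folr1, -0.08 for Clic6, 0.04 for Kl and -0.02 for Slc4a5. The part of cell composition in the group difference was not tested beyond these values.

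**Figure D2:**
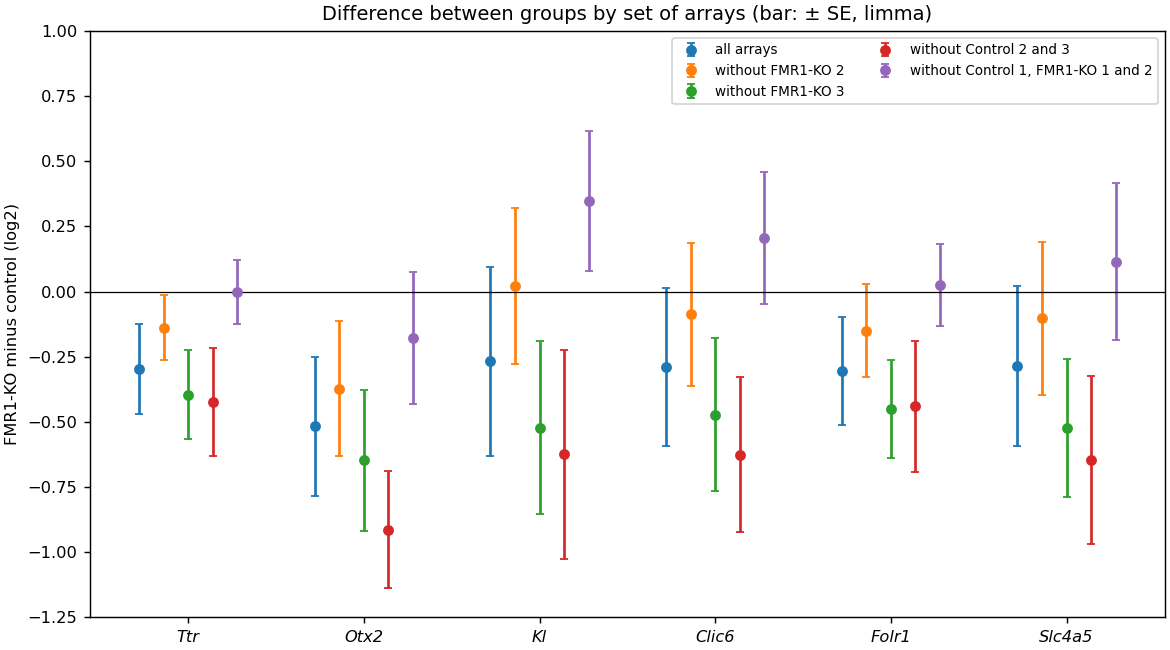
FMR1-KO minus control difference in log2 level (y axis) for each measured choroid plexus gene, fitted with limma on all arrays and on 4 smaller sets of arrays (colours); bars are ± SE. Values range from -0.91 for Otx2 without control arrays 2 and 3 to 0.35 for Kl without control array 1 and FMR1-KO arrays 1 and 2.

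Across arrays the 5 other genes were high where Ttr was high and low where it was low; each had a positive r, as did 47.6% of all genes. Over the 10 arrays, Pearson's r with Ttr was 0.915 for Kl, 0.893 for Folr1, 0.875 for Clic6, 0.868 for Otx2 and 0.863 for Slc4a5. Spearman's rho was 0.915, 0.903, 0.879, 0.939 and 0.927 in the same order. By r these genes ranked 27, 39, 54, 65 and 70 among 17711 genes, and 0.395% of genes had an r at least as high as the lowest of them. Each r had a two-sided permutation p between 0.00021 and 0.00039 from 100000 pairings.

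Adjusted over all 17711 genes those p-values were 0.127 to 0.147, so none passed, nor did any gene (0% in either direction). At an unadjusted permutation p under 0.05, 7.62% of genes had a positive r, the 5 genes included. The permutation p of rho lay between 0.00023 and 0.0015, or 0.170 to 0.380 after adjustment.

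Regressing each gene on the Ttr level with limma, a choice made after seeing the data, called 41 genes with a positive slope (0.231% of those tested) and 14 with a negative one (0.079%), and all 5 members were among the 41. Per log2 unit of Ttr, Kl changed by 1.83 ± 0.25 (SE), Slc4a5 by 1.48 ± 0.27, Clic6 by 1.48 ± 0.25, Otx2 by 1.42 ± 0.25 and Folr1 by 1.06 ± 0.18, with limma adjusted p between 0.0128 and 0.0403. These calls rested on FMR1-KO array 2, the array with the lowest Ttr: without it 0 genes were called and the members' adjusted p ran from 0.186 to 0.857, with slopes of 1.23 to 2.27. Without any other single array 1 to 5 members were called; only Kl was called without control 4 or 5 or FMR1-KO 1, 3 or 4, only Kl and Folr1 without control 2, and all but Slc4a5 without FMR1-KO 5. Without control array 1 the positive calls numbered 1169, or 6.60%, and included all 5. Ttr was read near the top of the signal scale, and whether this changes the slopes was not tested.

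The r of each member stayed at 0.800 or higher without any single array. Its permutation p rose without FMR1-KO array 2, to between 0.00184 and 0.00819 for the members. Adjusted over all genes, these p-values ran from 0.8265 to 0.9961. Leaving out each array in turn gave r between 0.858 and 0.966 for Kl, 0.800 and 0.911 for Folr1, 0.841 and 0.969 for Clic6, 0.853 and 0.900 for Otx2 and 0.853 and 0.894 for Slc4a5. Without FMR1-KO array 2 and control array 1, whose Ttr was farthest from the median, r over 8 arrays was 0.818, 0.741, 0.801, 0.855 and 0.903 in the same order, with exact permutation p of 0.0131, 0.0339, 0.0176, 0.00717 and 0.00122 before adjustment. With levels centred on their group means, r over all 10 arrays was 0.828 to 0.946. It thus did not rest on the difference between those means. Its permutation p, with arrays exchanged within groups, was 0.154 to 0.445 after adjustment. No r was computed in each group alone. Without control arrays 2 and 3, the r of uncentred levels was 0.897 to 0.969.

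The members also varied together without Ttr. Over all 15 pairs r ran from 0.828 to 0.966 with a median of 0.893, and over the 10 pairs without Ttr the median was 0.905. The closest pair was Kl and Clic6, with an r of 0.966. Its permutation p was 2e-05 with the genes ranked against Kl and 1e-05, the smallest the pairings can give, with them ranked against Clic6. Adjusted over all genes these were 0.0394 and 0.0295, the only pair of the 15 past the threshold. Among all 17711 genes, 9 passed against Kl and 12 against Clic6, with an r of either sign. By r Clic6 ranked 7 against Kl, and Kl ranked 4 against Clic6. This ranking was added after seeing the data. The loosest pair was Folr1 and Slc4a5, at 0.828.

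**Figure D3:**
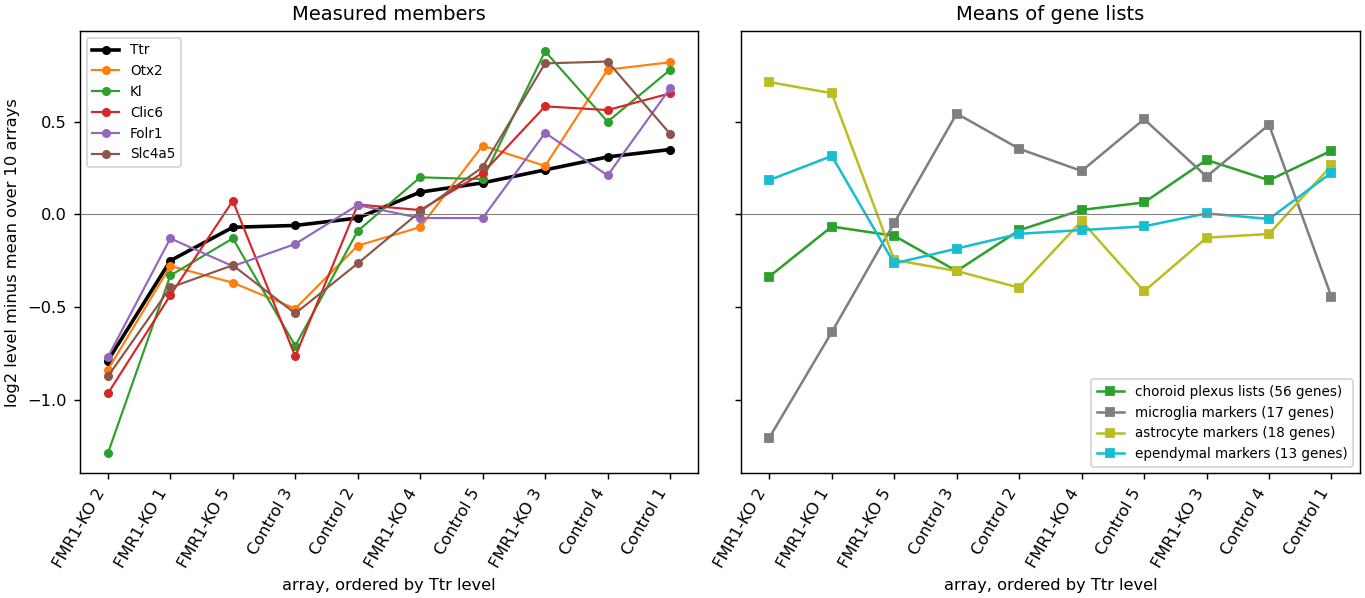
Log2 level minus its mean over the 10 arrays (y axis), with arrays ordered by Ttr level (x axis): at left the 6 measured choroid plexus genes, 1 line each, and at right the means of 4 gene lists. The members and the choroid plexus lists climb from FMR1-KO array 2 towards control array 1, while the microglia mean is low on FMR1-KO arrays 1 and 2 and again on control array 1.

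Other genes of the choroid plexus were taken from 5 lists by function, 64 genes in all, of which 56 were tested. Of these 43 had a positive and 13 a negative r with Ttr, with a median of 0.67 against -0.03 over all genes. At an unadjusted permutation p under 0.05, 29 were positive, or 51.8% beside 7.62% of all genes, and 3 were negative. The negative ones were Cdh1 with an r of -0.73, Bmp7 with -0.72 and Clcn2 with -0.65. By the same measure 88.2% of 17 microglia markers and 21.4% of 14 endothelial markers were positive, and 0 of either were negative. Of the 56 genes 0 passed by permutation adjusted over all genes. Limma on the Ttr level called 15 of them positive and 0 negative, beside 0.231% and 0.079% of all genes. The same fit called 0 of these microglia and endothelial markers. Without FMR1-KO array 2 that fit called 0 genes of all those tested. The lists were chosen with earlier results of these data known, so their shares and calls are not independent support for the co-variation. In the FMR1-KO comparison 35 of 56 were lower and 21 higher, beside 53.2% of all genes lower, with a median of -0.12 beside -0.01 over all genes, and 0 passed (limma). At an unadjusted p under 0.05, 0 of 56 were lower and 3 higher, beside 3.53% and 4% of all genes.

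Genes of fluid secretion were split. Carbonic anhydrase Car12 had an r of 0.955, the sodium, potassium and chloride cotransporter Slc12a2 of 0.922, the potassium channel subunit Kcne2 of 0.904 and the water channel Aqp1 of 0.832. Of the 12 tested, 7 had a positive and 5 a negative r, with a median of 0.63. Over the 7 arrays without control 1 and FMR1-KO 1 and 2, 11 of the 12 were positive. The median of the 12 was then 0.69, beside 0.15 over all genes. Trpm3, a cation channel that astrocytes also express, had an r of -0.26 over all arrays and of 0.47 over the 7 arrays without control 1 and FMR1-KO 1 and 2. Car12 itself read 8.71, 7.97, 7.82, 8.77 and 8.24 on control arrays 1 to 5 and 7.58, 6.95, 8.89, 8.29 and 8.07 on FMR1-KO arrays 1 to 5, with the same arrays high and low as for Kl.

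Among 10 secreted proteins 8 had a positive r, with a median of 0.81. The peptide precursor Ecrg4 had an r of 0.882, the growth factor Igf2 of 0.891, coagulation factor F5 of 0.822 and the BMP antagonist Sostdc1 of 0.800. Igfbp2, which binds insulin-like growth factors, had 0.11, and Wfdc2 had 0.60 but -0.22 without the 2 arrays farthest in Ttr. Igf2 is also made by the meninges, so a positive r does not tie it to 1 cell type.

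Among 13 genes of the barrier and the cell surface 12 had a positive r, with a median of 0.83. The tight junction genes Cldn2 and Cldn1 had 0.939 and 0.929, Tmem72 had 0.954 and the serotonin receptor Htr2c had 0.918. Htr2c was highest on control array 1, at 9.17, and lowest on FMR1-KO array 2, as Ttr was. Of 11 solute transporters 8 were positive, with a median of 0.24. Over the 7 arrays without control 1 and FMR1-KO 1 and 2 their median was 0.84, beside 0.15 over all genes. Over those arrays the medians of the secreted proteins and the barrier genes were 0.63 and 0.68. Over all arrays the sulfate transporter Slc13a4 had 0.843 and the organic anion transporter Slc22a8 had 0.752. Of 10 transcription factors and other genes 8 were positive: Calml4 had 0.707 and the patterning factor Lmx1a, a dim probe set at 5.80 on controls, had 0.57.

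Among genes that handle thyroid hormone and retinol, the ligands of the transthyretin complex, the median r changed sign with the set of arrays. Of 21 tested, 6 had a positive and 15 a negative r over all arrays, with a median of -0.38, beside 47.6% of all genes with a positive r. Over the 7 arrays without control 1 and FMR1-KO 1 and 2, 12 of 21 were positive, with a median of 0.08 beside 0.15 over all genes. The thyroxine transporter Slco1c1, which astrocytes and vessels express, had an r of -0.52, the deiodinase Dio2 of -0.57 and the thyroid hormone receptor Thra of -0.54. The retinol carrier Rbp4, at 5.35 on controls close to the filter level, had -0.26, and the retinol receptor Stra6 had 0.47. Over the 7 arrays r was 0.52 for Slco1c1, 0.37 for Dio2, -0.14 for Thra, -0.75 for Rbp4 and 0.08 for Stra6. Before adjustment the permutation p of these 5 over all arrays lay between 0.0862 for Dio2 and 0.459 for Rbp4.

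Markers of other cell types followed Ttr in part. All 17 microglia markers had a positive r, between 0.52 and 0.82 with a median of 0.66, and all 18 astrocyte markers a negative one, with a median of -0.58. For other cells that border the ventricle or the meninges the medians were 0.02 over 13 ependymal markers and -0.24 over 12 leptomeningeal and fibroblast markers. They were -0.11 over 11 oligodendrocyte, 0.31 over 14 endothelial, 0.15 over 12 pericyte and -0.05 over 13 neuron markers. Foxj1, the ciliary factor of ependymal cells, had an r of -0.06. It is also in the choroid plexus list of transcription factors, so it counts on both sides.

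Control array 1 had the highest Ttr, at 13.80, with the third-lowest microglia mean, at 10.06. Over the 7 arrays without it and without FMR1-KO arrays 1 and 2, the median r was 0.52 for endothelial, 0.45 for ependymal, 0.43 for astrocyte and 0.27 for microglia markers, beside 0.15 over all genes. It was 0.22 for oligodendrocyte, 0.19 for pericyte, 0.08 for leptomeningeal and -0.44 for neuron markers. Of the 13 ependymal markers 10 had a positive r over these arrays, and Foxj1 had 0.52. Over the same 7 arrays the members kept an r of 0.852 for Kl, 0.792 for Folr1, 0.771 for Clic6, 0.943 for Otx2 and 0.961 for Slc4a5, and the 56 choroid plexus list genes a median of 0.74. Over these arrays the microglia mean ranged from 10.46 to 11.05; its part in the co-variation was not tested beyond these values.

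**Figure D4:**
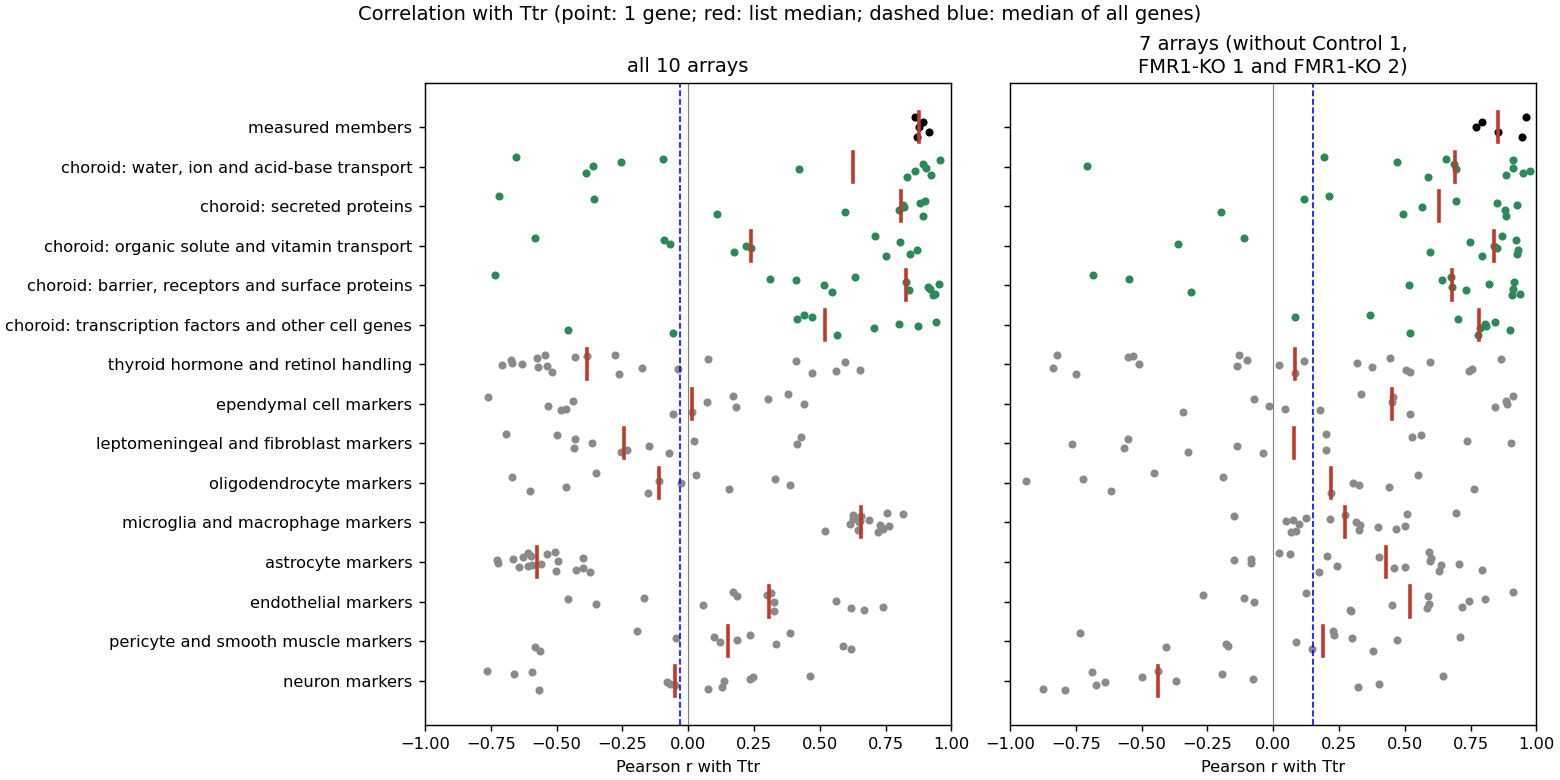
Pearson's r with Ttr (x axes) for the 5 other measured members (black), 5 choroid plexus gene lists (green) and lists for thyroid hormone and retinol handling and for other cell types (grey), over all 10 arrays at left and over 7 arrays at right; red bars are list medians and the dashed line is the median of all genes. The members lie between 0.863 and 0.915 at left and between 0.771 and 0.961 at right, whereas the astrocyte median goes from -0.58 to 0.43.

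The genes most like Ttr over the 10 arrays, by Pearson's r among all 17711, were Epn3 at 0.972, App at 0.959, Car12 at 0.955, Tbc1d9 at 0.955, Chdh at 0.954, Tmem72 at 0.954, Hnrnpul2 at 0.950, Vat1l at 0.940, Cldn2 at 0.939 and Ddrgk1 at 0.938. Car12, Tmem72, Vat1l and Cldn2 are in the choroid plexus lists. App, the amyloid precursor gene, is expressed in many cell types; its means were 9.90 ± 0.31 (SD, n = 5) in controls and 9.52 ± 0.49 (SD, n = 5) under the FMR1-KO label. The profile of Chdh spanned 0.50 log2 units near the filter level, at 5.46 under the FMR1-KO label. The most opposed genes were Hunk at -0.951, D17Ertd648e at -0.936, Flg at -0.936, Egfl6 at -0.929 and Nat8f1 at -0.924. Their permutation p after adjustment over all genes was 0.0886 or higher for each of the 15, and r stayed between 0.738 and 0.938 for the 10 most like genes without the 2 arrays farthest in Ttr.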

How the data were processed

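Per the labels' protocols, RNA of the sorted cells was copied to cDNA, amplified (WT kit, Affymetrix) and biotinylated. The deposited table gives a log2 signal for each probe set, a scale read from the values (4.31 to 13.86; array medians 6.11 to 6.24). How the authors corrected, normalized and summarised the probes is not given in the sources used here; per the series' design text, groups were compared in GeneSpring 13.1.1.

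The annotation pairs 23521 of the 33793 probe sets with 1 gene symbol and 1814 with several, and lists none for 8458. Per gene the brightest single-symbol probe set was kept, and those with a mean under the 25th percentile were left out. Groups were compared by moderated linear models (limma 3.58.1, R 4.3.3); p-values were two-sided, Benjamini-Hochberg adjusted across the genes tested, and called under 0.05. Correlations with Ttr used numpy 2.4.6 and 100000 permutations, or all where there were fewer. Both were tested on simulated data.

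The members and lists were chosen with earlier results of these data known. The genes named are all 9 members, 36 list genes taken whatever their values, of which 33 were tested, and the 10 highest and 5 lowest by r with Ttr, leaving out predicted, small RNA and olfactory receptor genes. Cdh1, Bmp7 and Clcn2 were named in addition for their negative r. The number of arrays limits the precision. Alternatives were other scalings, filters and probe set rules, array weights, eBayes settings, a replicate block and sets of arrays left out.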

Additional observations from a re-analysis of the deposited data

Results flagged for a closer look

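The check covered 102 group values, from 51 of the named genes in each group of 5 arrays. Of these values 3 had an array far from the other 4, where chance flags about 1 in 20. The fibroblast marker Dcn read 7.35 on FMR1-KO array 1 and 6.19 to 6.52 on the other arrays of that label. The microglia marker P2ry12 was at 10.84 on control 1, while controls 2 to 5 lay between 11.97 and 12.13. The neuron marker Snap25 read 6.14 on FMR1-KO array 3 and 6.48 to 6.59 on the other arrays of that label. None of the 6 measured choroid plexus genes had such an array in either group.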

How the results depend on the processing

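Over 22 alternatives, 125 of 132 member differences kept their sign and 0 passed the adjusted threshold. Several alternatives could not turn a sign, so this count overstates the stability. The filters, the probe set rule, the eBayes settings, the replicate block and the exact permutation test left each difference as it was. The exact test was also not adjusted. The signs turned for Kl without FMR1-KO array 2 (0.022; -0.52 to 0.022 leaving out each array in turn), with array weights (0.10) and with the microglia mean in the model (0.036), and without control array 1 and FMR1-KO arrays 1 and 2 for Kl (0.35), Clic6 (0.21), Folr1 (0.025) and Slc4a5 (0.11); the cause was not tested. That last set of arrays called 1 gene between the groups, which was no member, and leaving out 1 array at a time called 0 to 1 (1 without control 5). Over 20 alternatives the members' r with Ttr stayed between 0.741 and 0.969, and 0 members and 0 genes passed by permutation. Limma on the Ttr level, added after the data were seen, called 55 genes and 5 members. Same-numbered arrays did not pair (correlations of their deviations -0.02 to 0.53). With the replicate number as a block Ttr differed by -0.30 and 0 genes passed, so the block changed no call. Ttr lies near the top of the signal scale, and whether this narrows its span was not tested.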
